A study of Homo sapiens with 4 samples.

Results

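The regions described here were distal stretches of chromatin that were called accessible in MCF10A cells only after TAZ-4SA had been switched on, and then with high fold enrichment. Overlapping or touching ATAC-seq peaks of both conditions on chromosomes 1 to 22 and X were merged, and a region was kept when it held peaks of the Dox list only, when its highest fold enrichment was at least 6, and when it lay 3 to 100 kb from the nearest transcription start site (TSS) of any transcript. Of 149858 merged regions, 1720 met this rule (1.15%), or 1.75% of the 98263 merged regions at that distance from a TSS. They are called the gained regions below. They were chosen by peak calls and folds, so these values are a description and support nothing.

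MCF10A is an immortalised, non-tumorigenic line of human mammary epithelial cells. All cells carried a tet-inducible TAZ-4SA transgene, a constitutively active form of TAZ, and were grown in medium with horse serum, EGF, hydrocortisone, cholera toxin and insulin. The No Dox group (2 replicates) received no doxycycline, and the Dox group (2 replicates) received 0.05 µg/mL doxycycline for 72 h. A control for doxycycline itself, in cells without the transgene, was not analysed here. The study asked how accessibility across the genome responds to TAZ activation, using transposition of 50000 cells per library. The authors pooled both replicates of a group before peak calling, giving 84353 Dox peaks and 117740 No Dox peaks, so the peak lists hold no spread between replicates and no difference was tested here. In this bulk assay, a region open in more cells and one open wider in each cell cannot be told apart. Read depth was unknown, and every interval below is an exact Clopper-Pearson 95% interval that covers counting error alone. Of 9 epithelial markers of this line, 7 had a peak within 1 kb of a coding TSS in both lists, KRT14 had none and TP63 had one in Dox alone. Of 6 immune and 6 endothelial markers, 1 of each had such peaks in both lists, and 1 further immune marker had one in Dox alone. The other 4 immune and 5 endothelial markers had none.

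TAZ is a transcriptional co-activator at the end of the Hippo pathway, which restrains it by phosphorylation in dense or soft surroundings. It has no DNA-binding domain of its own and reaches chromatin mainly through the TEAD factors, whose recognition element has the core CATTCC. AP-1 factors, which are dimers of FOS and JUN proteins, often occupy the same enhancers and bind TGACTCA or TGAGTCA.

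The sequences of selected gained regions show what such elements look like. Each window reaches 100 bp to both sides of the peak summit, on the plus strand of hg38 and written 5′ to 3′. Capitals mark TEAD sites (ACATTCC or GCATTCC, which read GGAATGT or GGAATGC on the minus strand) and AP-1 sites (TGACTCA or TGAGTCA). The first 4 were the windows of highest fold that held a TEAD site, leaving out 1 chromosome from which no sequence is shown. Each is named after the coding gene with the nearest TSS.
POGK, chr1:166814723-166814923: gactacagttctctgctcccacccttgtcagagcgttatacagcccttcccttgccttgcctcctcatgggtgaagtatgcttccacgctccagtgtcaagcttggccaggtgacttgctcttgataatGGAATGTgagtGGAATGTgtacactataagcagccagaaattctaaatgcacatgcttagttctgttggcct
LDAH, chr2:20931031-20931231: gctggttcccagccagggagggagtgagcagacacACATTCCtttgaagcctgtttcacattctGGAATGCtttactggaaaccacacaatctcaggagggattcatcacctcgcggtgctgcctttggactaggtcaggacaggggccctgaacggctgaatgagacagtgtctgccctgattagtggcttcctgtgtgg
CNTNAP2, chr7:147412820-147413020: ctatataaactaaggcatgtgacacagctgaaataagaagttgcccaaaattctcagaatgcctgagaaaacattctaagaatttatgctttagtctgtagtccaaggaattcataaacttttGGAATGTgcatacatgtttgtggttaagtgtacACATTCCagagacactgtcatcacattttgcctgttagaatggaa
ASB3, chr2:53028378-53028578: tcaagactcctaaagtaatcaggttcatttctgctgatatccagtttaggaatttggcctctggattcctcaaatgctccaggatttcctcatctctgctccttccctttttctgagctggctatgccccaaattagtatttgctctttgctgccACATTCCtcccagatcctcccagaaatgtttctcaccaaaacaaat
The window near POGK had a fold of 27.8, the highest of all gained regions, and held TEAD sites 32 and 43 bp to the right of the summit, both on the minus strand. The window near LDAH (fold 22.8) held sites on opposite strands, 62 and 33 bp to the left of the summit. The intronic window of CNTNAP2 (fold 21.0) had its sites 26 and 59 bp to the right, also on opposite strands. The window near ASB3 (fold 17.2) held 1 site, 58 bp to the right.

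The next 3 windows are the gained regions with a TEAD site near established YAP/TAZ target genes, and each of them also held an AP-1 site.
AMOTL2, chr3:134320847-134321047: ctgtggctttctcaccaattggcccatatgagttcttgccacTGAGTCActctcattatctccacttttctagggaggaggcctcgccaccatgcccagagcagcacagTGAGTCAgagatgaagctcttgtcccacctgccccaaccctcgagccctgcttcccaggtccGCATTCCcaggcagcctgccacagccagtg
RBMS3, chr3:29240299-29240499: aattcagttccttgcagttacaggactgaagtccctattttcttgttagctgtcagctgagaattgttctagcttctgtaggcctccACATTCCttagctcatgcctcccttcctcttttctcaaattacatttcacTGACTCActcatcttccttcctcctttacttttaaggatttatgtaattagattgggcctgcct
GADD45A, chr1:67752412-67752612: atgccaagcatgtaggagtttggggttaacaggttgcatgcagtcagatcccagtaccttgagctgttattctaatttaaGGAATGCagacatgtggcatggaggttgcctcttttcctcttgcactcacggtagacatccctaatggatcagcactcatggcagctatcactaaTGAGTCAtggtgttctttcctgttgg
Near AMOTL2, which encodes an angiomotin family protein that binds YAP and TAZ, the TEAD site lay 74 bp right of the summit and AP-1 sites lay 55 bp left and 12 bp right of it. In the intronic window of RBMS3 the TEAD site was 10 bp left of the summit and the AP-1 site 40 bp right. In the window assigned to GADD45A, which lies in an intron of GNG12, they were 17 bp left and 78 bp right.

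The last 3 windows show the extremes of site content. With the same chromosome left out, they are the window of highest fold with 5 TEAD sites, the most found in any gained region, the window of highest fold with both a TEAD and an AP-1 site, and the window of highest fold with an AP-1 site and no TEAD site.
ROBO2, chr3:76497708-76497908: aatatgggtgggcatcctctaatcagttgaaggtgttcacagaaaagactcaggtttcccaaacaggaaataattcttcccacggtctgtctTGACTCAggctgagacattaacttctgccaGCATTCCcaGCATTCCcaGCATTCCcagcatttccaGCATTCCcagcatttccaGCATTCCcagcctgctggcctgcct
ACSL3, chr2:222959393-222959593: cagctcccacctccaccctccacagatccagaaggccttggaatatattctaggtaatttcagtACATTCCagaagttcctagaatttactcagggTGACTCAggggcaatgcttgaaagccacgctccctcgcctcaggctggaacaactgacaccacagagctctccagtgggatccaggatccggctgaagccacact
EFEMP1, chr2:55992602-55992802: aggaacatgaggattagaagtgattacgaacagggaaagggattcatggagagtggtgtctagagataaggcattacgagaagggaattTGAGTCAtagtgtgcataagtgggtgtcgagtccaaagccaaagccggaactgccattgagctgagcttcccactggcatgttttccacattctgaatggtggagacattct
In the ROBO2 window (fold 13.8) the 5 TEAD sites stood in a tandem array on the plus strand, 25, 34, 43, 61 and 79 bp from the summit. The ACSL3 window (fold 14.7) had its AP-1 site 1 bp and its TEAD site 33 bp from the summit, both to the left. The EFEMP1 window (fold 15.1) had its AP-1 site 8 bp left of the summit.

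The gained regions held a TEAD site more often than any other kind of distal region compared. Within 100 bp of the summit, 730 of 1720 gained regions had one (42.4%, interval 40.1 to 44.8%), against 9.0% of all merged regions. Among distal regions in both lists with a Dox fold of at least 6, here called shared regions, the share was 21.9% of 8122 (21.0 to 22.8%). Among Dox-only distal regions below a fold of 6, here called weaker gained regions, it was 12.9% of 20202 (12.5 to 13.4%). Among distal regions with No Dox peaks only and a fold of at least 6, here called lost regions, it was 4.46% of 1863 (3.56 to 5.49%). The share in gained regions thus stood 38.0 percentage points above that in lost regions. The letters in reversed order (CCTTACA or CCTTACG), which have the same base composition, were present in 3.20% of gained and 3.38% of lost regions. In the flanks of the same gained regions, 300 to 400 bp from the summit on both sides, 6.69% had a TEAD site and 2.56% the reversed letters. In the flanks of lost regions these shares were 4.24% and 2.15%. The reversed letters were thus the rarer sequence away from the summit too, and their share is not the TEAD share to be met by chance. The intervals of the TEAD share at the summit overlapped between no pair of these 4 kinds of region.

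AP-1 sites followed another order. They were present in 15.9% of gained regions (14.2 to 17.7%), 8.04% of weaker gained, 33.8% of shared and 41.2% of lost regions (39.0 to 43.5%), and in 12.8% of all merged regions. Gained regions thus had AP-1 sites 25.3 percentage points less often than lost regions (a difference of -25.3). The reversed AP-1 letters (ACTCAGT or ACTGAGT) were present in 4.42% of gained and 5.31% of lost regions, and the flanks of gained regions held an AP-1 site in 2.79%.

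**Figure D1:**
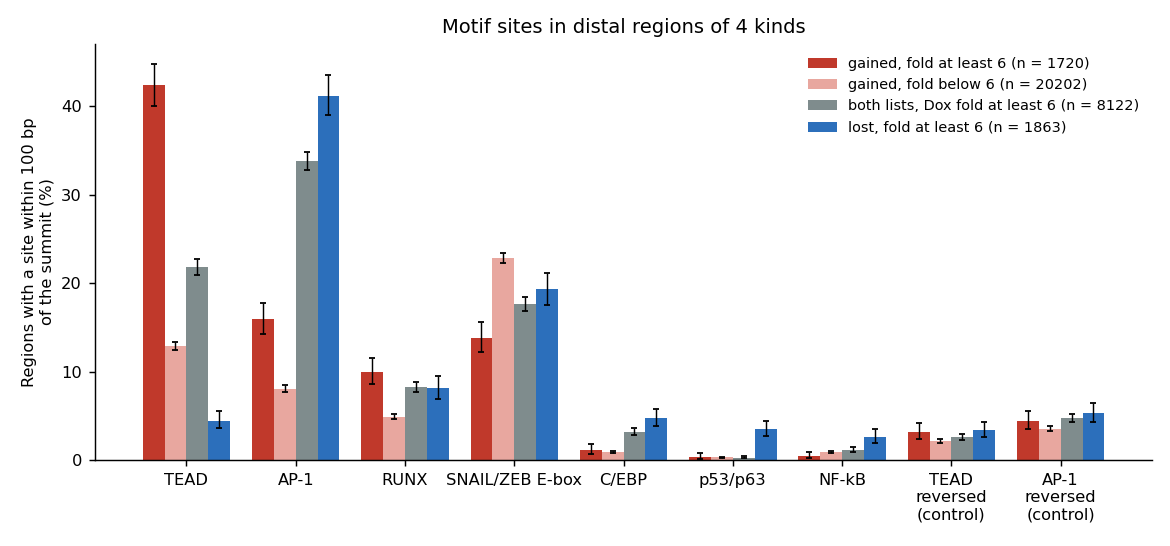
Share of distal regions (%, vertical axis) with a site of each motif (horizontal axis) within 100 bp of the summit, in gained regions of fold at least 6, weaker gained regions, shared regions and lost regions, with exact 95% intervals as error bars. The TEAD bar of gained regions stands at 42.4% and that of lost regions at 4.46%, the AP-1 bars stand at 15.9% and 41.2%, and the bars of the reversed letters lie near each other in all 4 kinds.

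The RUNX sequence (TGTGGTT), bound by factors of the Runt family, was present in 10.0% of gained regions (8.62 to 11.5%), against 4.88% of weaker gained, 8.24% of shared, 8.11% of lost and 4.77% of all merged regions. The interval of gained regions overlapped those of shared and of lost regions. Several motifs were rarer than in lost regions. The p53/p63 element, bound by the basal lineage factor p63 among others, was present in 0.349% of gained and 3.49% of lost regions, against 0.446% of all merged regions. The NF-kB element stood at 0.465% and 2.63% (1.09% of all), and C/EBP sites (TTGCGCAA or TTGTGCAA) at 1.16% and 4.72% (1.39% of all). The E-box bound by SNAIL and ZEB repressors (CACCTG) was present in 13.8% of gained and 19.3% of lost regions, against 19.9% of all merged regions and 22.8% of weaker gained regions.

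For the other motifs the intervals of gained and lost regions overlapped. STAT sites (TTCCNGGAA) were in 1.57% of gained and 1.13% of lost regions (0.755% of all), and AP-2 sites (GCCNNNGGC) in 8.08% and 7.78% (10.2% of all). FOX sites (TATTTAC or TGTTTAC) were in 7.21% and 6.87% (5.39% of all), and GRHL sites (AACCNGTT) in 0.872% and 1.83% (1.24% of all). ETS sites (CCGGAAA or CCGGAAG) were in 1.05% and 1.45% (2.91% of all), CTCF sites in 0.698% and 1.24% (1.31% of all). YY1 sites (AAGATGGC) were in 0.523% and 0.537% (1.0% of all), and glucocorticoid receptor elements in 0.407% and 0.537% (0.426% of all). All 17 motifs, the 2 reversed sequences included, were sought on both strands. The reverse complement of the AP-1 letters is itself an AP-1 site, and a STAT site can overlap a TEAD site in the letters TTCC. The AP-1 and TEAD letters can also overlap, which they did in 0 of the 91 gained regions with both.

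A ranking of all 2080 distinct 6-letter sequences, in which no motif is chosen beforehand, pointed to the same letters. CATTCC ranked first by the difference in share between gained and lost regions, and also against shared and against weaker gained regions. It was present in 51.6% of gained, 30.2% of shared, 20.0% of weaker gained and 11.2% of lost regions. The sequences at ranks 2 to 5 against lost regions overlap CATTCC or its reverse complement by 5 letters. The second was AGGAAT, present in 46.05% of gained and 12.5% of lost regions, and the third was ATTCCA, with 43.4% and 12.4%. The fourth, ACATTC, stood at 39.1% and 10.4%, and the fifth, GAATGC, at 31.5% and 8.43%. At the other end stood GACTCA, the last letters of the AP-1 site TGACTCA, in 20.9% of gained and 44.9% of lost regions. Beside it stood GAGTCA, the last letters of TGAGTCA, in 22.8% and 45.8%.

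The 990 gained regions without a TEAD site held sequences close to it. The largest differences from lost regions without a TEAD site were for AATTCC, in 35.8% of these gained and 10.2% of these lost regions, AAGAAT (34.6% and 13.2%) and ATTCCA (32.3% and 10.96%). AGAATG, whose reverse complement is CATTCT, was present in 34.0% and 15.2%. AATTCC and CATTCT each differ from CATTCC by 1 letter. The full core CATTCC, with another letter before it than A or G, was present in 157 of the 990 gained regions without a TEAD site. Among the other kinds without a TEAD site, it was present in 678 of 6346 shared, 1437 of 17593 weaker gained and 125 of 1780 lost regions.

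TEAD sites stood at the summits of gained regions. Within 50 bp of the summit there were 82.3 sites per 1000 gained regions per 25 bp, 50.3 at 50 to 100 bp and 8.25 at 300 to 500 bp. Lost regions had 4.97, 6.71 and 6.47 at the same distances, without a rise at the summit. Shared regions had 37.1 within 50 bp and 7.17 at 300 to 500 bp. AP-1 sites rose at the summits of both kinds, to 27.6 per 1000 gained and 77.4 per 1000 lost regions within 50 bp, from 3.49 and 4.29 at 300 to 500 bp. RUNX sites reached 14.97 per 1000 gained regions within 50 bp, from 4.32 at 300 to 500 bp.

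**Figure D2:**
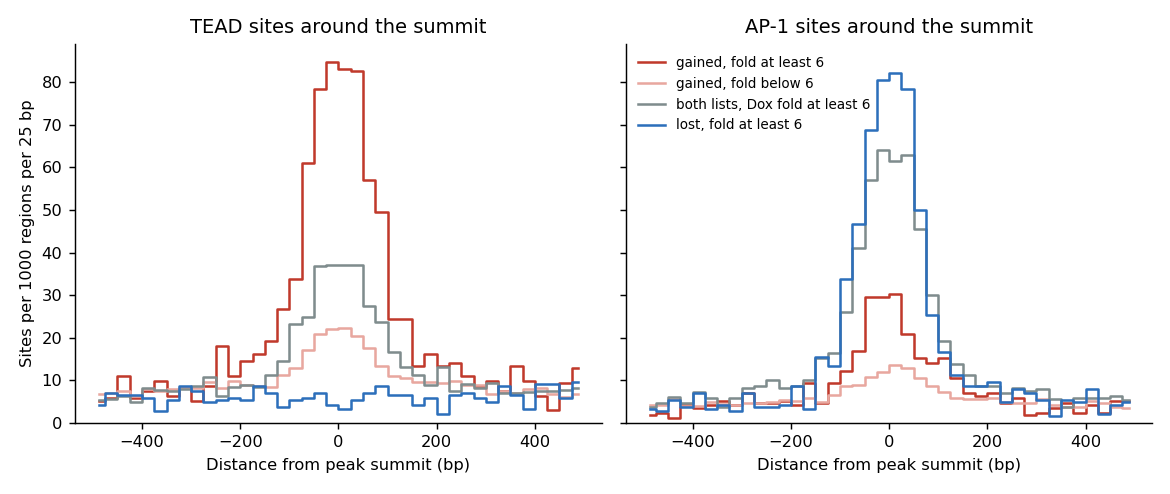
Sites per 1000 regions in bins of 25 bp (vertical axis) by distance from the peak summit in bp (horizontal axis), for TEAD sites on the left and AP-1 sites on the right, with 1 line for each kind of region. The TEAD line of gained regions has a mean of 82.3 over the bins within 50 bp of the summit. The TEAD bins of lost regions lie between 2.15 and 9.66 without a rise at the summit. The AP-1 line of lost regions has a mean of 77.4 within 50 bp.

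Several TEAD sites in 1 window were more frequent in gained regions too. At least 2 sites were present in 149 gained regions (8.66%, interval 7.38 to 10.1%), against 2.35% of shared regions, 1.35% of weaker gained regions and 1 of 1863 lost regions. Of the gained regions, 133 had 2 sites, 13 had 3, 1 had 4 and 2 had 5. Paired cores on the same strand stood most often with 3 bases between them, in 15 gained regions, and the next most frequent spacings (5, 6 and 13 bases) had 6 regions each. The median over the other spacings from 0 to 54 bases was 2 regions. On opposite strands, the spacing of 3 bases was found in 2 gained regions and no spacing in more than 5. The ROBO2 window printed above is an example of the 3-base spacing. The same-strand 3-base spacing was also the most frequent in weaker gained regions (19 regions, at most 12 at any other spacing). It was so in shared regions as well (10 regions, at most 7 at any other). Per 1000 windows, it was found in 8.83 gained, 1.24 shared, 0.942 weaker gained and 0 lost regions. These rates count all windows used, and windows with at least 2 TEAD sites were more frequent in gained regions. Windows with the 5-base satellite repeat that holds these letters in tandem (22 gained, 41 shared, 38 weaker gained and 3 lost) were left out, a choice made after the data had been seen. With them kept, the top same-strand spacing of shared regions was 14 bases, in 17 regions.

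**Figure D3:**
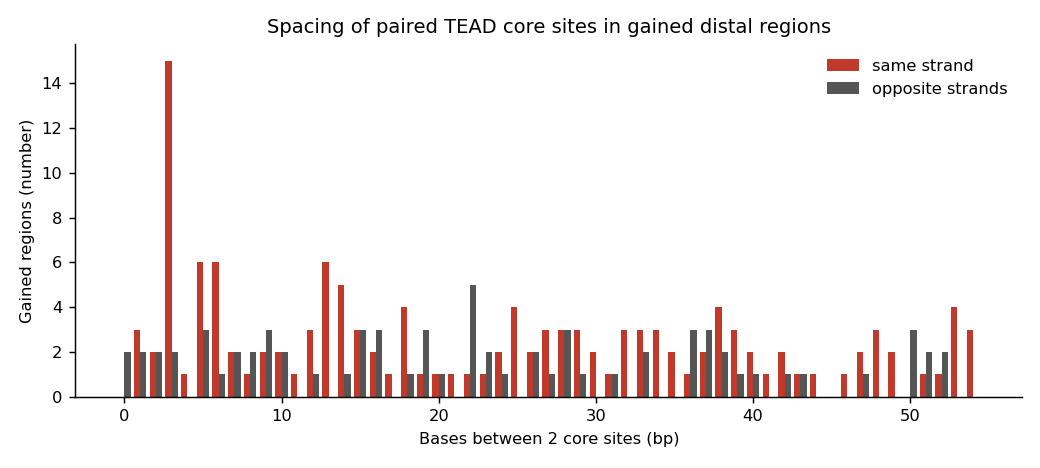
Number of gained regions (vertical axis) that held 2 TEAD cores with a given number of bases between them (horizontal axis, in bp), for cores on the same strand and on opposite strands. The bar at 3 bases on the same strand reaches 15 regions and no other bar exceeds 6.

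TEAD and AP-1 sites divided the gained regions into 4 groups. TEAD sites alone were present in 639 regions (37.2%), AP-1 sites alone in 183 (10.6%), both in 91 (5.29%) and neither in 807 (46.9%). The TEAD share was 33.2% (27.7 to 39.1%) among the 274 gained regions with an AP-1 site and 44.2% (41.6 to 46.8%) among those without. In shared regions the same shares were 17.3% and 24.2%, whereas in weaker gained regions they were 16.7% (14.9 to 18.6%) and 12.6% (12.1 to 13.1%). In lost regions they were 3.39% (2.22 to 4.92%) and 5.21% (3.97 to 6.69%), with intervals that overlap. Where both were present in a gained region, the median distance between the nearest pair was 42 bp, and 23 of the 91 pairs stood within 20 bp. The median was 40 bp in shared regions (133 of 474 pairs within 20 bp) and 38 bp in weaker gained regions (85 of 271). In lost regions it was 61 bp (5 of 26). Of the gained regions with neither a TEAD nor an AP-1 site, 90 held a RUNX site.

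The TEAD share was higher in gained regions of higher fold. It was 37.8% of 693 regions with a fold of 6 to 7, 42.9% of 468 with 7 to 8, 46.2% of 329 with 8 to 10, 47.0% of 132 with 10 to 12 and 54.1% of 98 with a fold of 12 or more (43.7 to 64.2%). AP-1 sites went from 19.9% of the lowest to 6.12% of the highest group (2.28 to 12.8%). In shared regions TEAD sites went from 16.3% to 27.6% over the same folds, while AP-1 sites lay between 30.9% and 37.6%. In lost regions the TEAD share lay between 1.80% and 6.67% in every fold group. Weaker gained regions with a fold of 4 to 6 had a TEAD site in 24.0%, and those with a fold below 4 in 9.28%. The folds of the 2 lists have different backgrounds, so equal folds do not stand for equal accessibility.

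**Figure D4:**
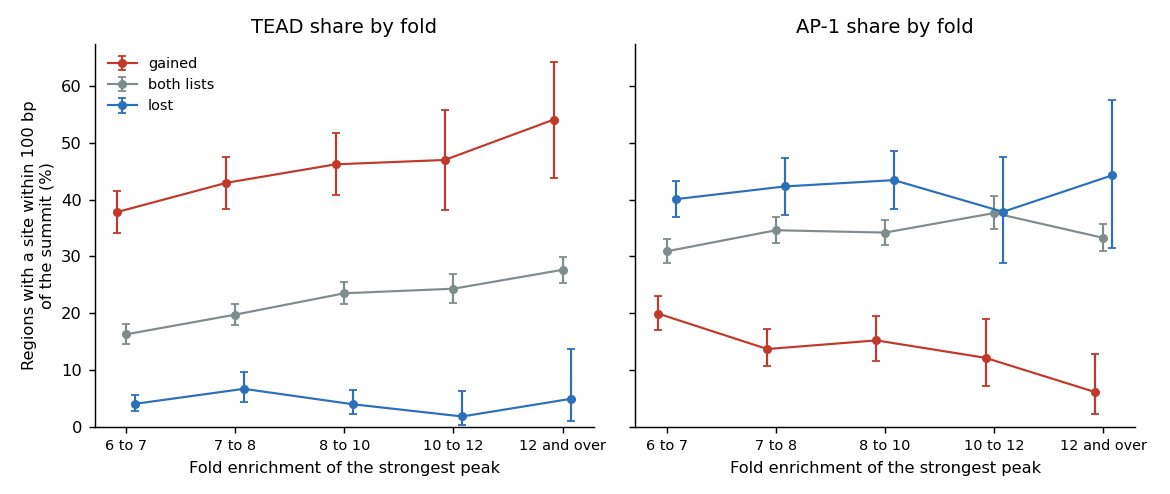
Share of regions (%, vertical axis) with a TEAD site (left) or an AP-1 site (right) within 100 bp of the summit, by fold enrichment of the strongest peak (horizontal axis), for gained, shared and lost regions, with exact 95% intervals. The TEAD share of gained regions runs from 37.8% to 54.1% and lies above that of shared regions in every fold group, and their AP-1 share runs from 19.9% to 6.12%.

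Folds came in whole steps of 0.226 in the Dox list, so the lowest gained regions had a fold of 6.10 (208 regions) and the next Dox-only distal regions below had 5.88 (197 regions). Just inside were regions near PHEX, SH3BGRL and SLITRK4, and just outside regions near DHRS3, NBPF1 and IFFO2. A TEAD site was present in 34.6% of the former (28.2 to 41.5%) and 39.1% of the latter (32.2 to 46.3%). Gained regions had a median fold of 7.23, a −log10 q-value of 12.4 to 136 and a median width of 605 bp (219 to 3795 bp), and each held exactly 1 Dox peak.

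Base composition differed between the kinds of region, so the shares were also taken within classes of GC content. The median GC content within 100 bp of the summit was 43.3% in gained, 44.3% in lost, 47.8% in shared and 49.8% in weaker gained regions. Across 6 classes of GC content, the TEAD share lay between 35.03% and 48.9% in gained, between 16.1% and 24.5% in shared and between 2.80% and 5.96% in lost regions. The AP-1 share lay between 13.4% and 19.6% in gained and between 28.7% and 47.2% in lost regions. Within each class, gained regions thus had a higher TEAD share and a lower AP-1 share than lost regions. Weaker gained regions had lower shares of both sites than gained regions in every class, at 7.40% to 18.5% for TEAD and 4.24% to 11.5% for AP-1.

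The gained regions lay mostly in introns and between genes. The summit was in an intron in 58.7% (56.3 to 61.0%), between genes in 38.8% and in an exon in 2.50%, and 44.5% of summits were inside a coding gene. Lost regions had 56.3% in introns (54.0 to 58.5%) and shared regions 57.2%. The median distance from a TSS was 18165 bp, with 28.9% of gained regions at 3 to 10 kb, 38.6% at 10 to 30 kb and 32.5% at 30 to 100 kb, against 27.8%, 39.2% and 33.1% of lost regions. The nearest TSS belonged to a coding gene in 40.4% and to a long non-coding RNA in 33.2%. TEAD sites were present in 41.0%, 42.3% and 43.8% of gained regions in these classes of distance, in 41.8% of those in introns and in 43.7% of those between genes. Beyond the distance limits of the rule, Dox-only regions of fold at least 6 had a TEAD site in 37.4% of 446 within 3 kb of a TSS and in 41.8% of 134 beyond 100 kb. RUNX sites were present in 8.05% and 7.83% of gained regions at 3 to 10 and 10 to 30 kb, in 14.3% at 30 to 100 kb (11.5 to 17.5%), and in 19.4% of the Dox-only regions beyond 100 kb (13.1 to 27.1%). In lost regions RUNX sites lay between 7.31% and 8.90% in the same classes up to 100 kb.

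The median gap to the nearest No Dox peak was 9559 bp. Such a peak lay within 1 kb of 7.62% of gained regions, within 5 kb of 30.8% (28.6 to 33.1%) and within 20 kb of 70.8%. The share within 5 kb was 51.4% when peaks were called shared only at an overlap of 50%, and 20.1% when both lists were limited to a q-value of 1e-05. A Dox peak lay within 5 kb of 26.7% of lost regions (24.7 to 28.8%). The No Dox list was the longer of the lists. When it was cut to the length of the Dox list, the share of gained regions was 25.9% (24.0 to 27.9%), and its interval overlapped that of lost regions. In weaker gained regions, 48.0% had a No Dox peak within 5 kb. TEAD sites were present in 44.7% of gained regions with a No Dox peak within 5 kb and in 41.4% of the others. Another gained region lay within 10 kb of 92 gained regions, within 50 kb of 246 and within 100 kb of 341.

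Gained regions were found on all 23 chromosomes analysed. They made up 17.5% of the 9842 distal regions with a Dox peak of fold at least 6, from 11.4% on chromosome 1 (9.82 to 13.2%) to 25.9% on chromosome 21 (17.0 to 36.5%). Chromosomes 5 and 8 had 14.5% and 14.9%, and chromosome 4 had 23.2%. Copy number was not measured here, and the part of chromosome gains in these shares was not tested. On chromosomes with at least 100 gained regions, the TEAD share lay between 38.4% and 47.7%.

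Of the 10 gained regions of highest fold, 6 lay in introns, 2 in exons and 2 between genes. In all, 6 lay inside a coding gene, although the nearest TSS of a protein-coding transcript was more than 100 kb away for 7 of the 10. The region of fold 27.8 upstream of POGK, a gene of a transposon-derived family, was 24.1 kb from its TSS and 1.04 kb from the nearest No Dox peak. A region of fold 23.5 lay in an intron of EXT1, which encodes a heparan sulfate polymerase, 3.63 kb from an EXT1 TSS. The region near LDAH (22.8) was 107 kb from its TSS. The region of fold 22.8 in an intron of CTNNA2, an alpha-catenin, had LRRTM1 as its nearest coding gene, and that of fold 21.0 lay in an intron of CNTNAP2, a cell adhesion gene.

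The other 5 of these regions had folds from 17.6 to 18.5. One in an exon of MAP7D3 was 8.13 kb downstream of a TSS of FHL1, a LIM domain gene of skeletal muscle. One in an intron of a non-coding gene was 404 kb from BMP2, a bone morphogenetic protein ligand. One was 505 kb from ADGRA3, an adhesion receptor gene. One lay in an intron of ZFPM2, a GATA cofactor gene. One lay in an exon of PTPN14, a phosphatase gene that is itself a YAP/TAZ target and binds YAP, although the nearest coding TSS was that of SMYD2. A TEAD site was present within 100 bp of the summit in 3 of the 10, and anywhere in the region in 6.

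The nearest coding gene was within 100 kb for 1088 gained regions, and these named 964 genes, 4.91% of 19626 coding genes. Lost regions named 961 genes (4.9%). The 177 genes named by both were 18.4% of each set. Of the 964 genes, 856 had 1 gained region, 93 had 2 and 15 had 3 or more. Their promoters were mostly open in both conditions. A peak lay within 1 kb of a coding TSS in both lists for 76.0% of the 964 genes (73.2 to 78.7%), in Dox alone for 3.22% (2.20 to 4.53%), in No Dox alone for 4.98% and in neither for 15.8%. Among genes named by lost regions, 75.7% had promoter peaks in both lists and 1.14% in Dox alone (0.573 to 2.04%). Among all coding genes these shares were 63.6% and 5.75% (5.43 to 6.09%). The Dox-alone share of genes near gained regions thus lay above that near lost regions and below that of all coding genes. Genes named by shared regions had promoter peaks in both lists in 74.97% and in Dox alone in 3.31% (2.73 to 3.97%). That last interval overlapped the one of genes near gained regions. Among genes named by weaker gained regions the shares were 68.1% and 6.29% (5.69 to 6.92%).

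Of the genes with 3 gained regions, the 9 with the strongest ones had 27 of them, 21 within the gene and 12 with a TEAD site. HIVEP2, a zinc finger gene, had 3 intronic regions with folds of 11.5, 8.82 and 6.56, each with a TEAD site. PALLD, which encodes the actin-bundling protein palladin, had 3 intronic regions with folds of 8.14, 8.14 and 7.23, the first 2 with TEAD sites, and 1 lost region. SNX24, a sorting nexin gene, had 3 intronic regions with folds of 13.1, 10.4 and 6.10 and no TEAD site within 100 bp of any summit.

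CDC42BPA, a kinase gene downstream of CDC42, had 3 regions in its introns (folds 9.27, 7.69 and 6.56), of which 2 had TEAD sites. SSPN, a gene of the dystrophin complex, had folds of 11.1, 8.82 and 7.46 and 1 region with a TEAD site. CD99L2, a membrane protein gene, had folds of 10.2, 8.59 and 6.78 and TEAD sites in 2, beside 2 lost regions. ADGRG6, an adhesion receptor gene, had folds of 9.04, 7.23 and 7.23, AP-1 sites in 2 regions and no TEAD site. PDE1A, a phosphodiesterase gene, had folds of 8.82, 8.59 and 6.56 and a TEAD site in 1, beside 2 lost regions. PDE1A was the 1 gene of these 9 without promoter peaks in both lists, with a peak in No Dox alone.

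Of 22 established YAP/TAZ target genes, 9 had at least 1 gained region assigned by the nearest coding TSS (40.9%, interval 20.7 to 63.6%). This stood beside 4.91% of all coding genes, and 2 of the 22 had a lost region. These 9 genes had 12 gained regions. The list was drawn up with earlier results of these data known. Without chromosomes 1, 5 and 8 the count was 5 genes, and with a fold of at least 8 it was 4. Counting every coding gene within 100 kb of a gained region, rather than the nearest alone, gave 10. Of the 12 regions, 3 had a TEAD site within 100 bp of the summit, 6 had an AP-1 site and 6 had neither.

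RBMS3, an RNA-binding protein gene, had 3 gained regions upstream of its nearest annotated coding start, at 40.5, 47.5 and 93.5 kb with folds of 6.78, 7.91 and 8.59. CRIM1, which encodes a membrane regulator of bone morphogenetic proteins, had 2, at 16.7 kb (fold 6.56) and 27.7 kb (fold 7.69). FOXF2, a forkhead factor of mesenchyme, had the strongest region assigned to the list, with a fold of 14.9 at 91.5 kb downstream. TGFB2, a TGF-beta ligand, had an intronic region of fold 9.49 at 44.2 kb, and ASAP1, an ARF GTPase-activating protein of adhesions, an intronic region of fold 8.14 at 13.7 kb. ASAP1 also had 3 lost regions. AMOTL2 had a region of fold 7.91 at 50.8 kb downstream.

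ANKRD1, which encodes a muscle ankyrin repeat protein, had a region of fold 6.56 at 38.9 kb upstream, with 2 AP-1 sites and no TEAD site. Its promoter had a peak in Dox alone, whereas the other 8 genes had promoter peaks in both lists. F3, the tissue factor gene, had a region of fold 6.33 at 13.5 kb, and GADD45A, a stress response gene, one of fold 6.10 at 66.9 kb. The remaining 13 genes of the list, CCN1 and CCN2 among them, had no gained region assigned by the nearest coding TSS within 100 kb. A gained region near such a gene can be assigned to another gene, as with the region in PTPN14 assigned to SMYD2.

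**Figure D5:**
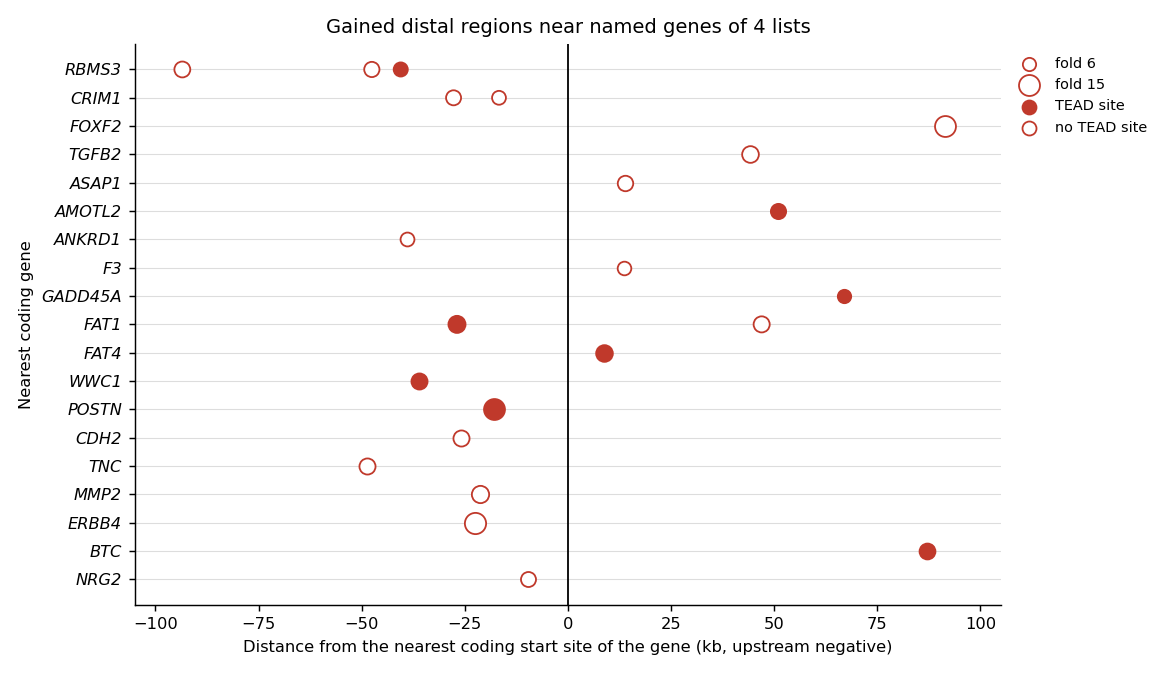
Gained regions near the named genes of 4 lists (YAP/TAZ targets, Hippo pathway, mesenchymal and matrix genes, ERBB receptors and ligands), 1 row per gene (vertical axis), placed by distance in kb from the nearest coding TSS of the gene (horizontal axis, upstream negative). Circle area is proportional to fold, from 6.10 at GADD45A to 15.4 at ERBB4, and filled circles had a TEAD site within 100 bp of the summit.

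Genes of the Hippo pathway and its TEAD partners had gained regions in 5 of 26 (19.2%, interval 6.55 to 39.4%, beside 4.91% of all coding genes), and 5 of these 6 regions held a TEAD site. FAT1 and FAT4 encode giant protocadherins upstream of the pathway. FAT1 had 2 intronic regions with folds of 9.95 and 8.82 and 1 lost region, and FAT4 had 1 with a fold of 9.49. WWC1, which encodes the activator KIBRA, had an intronic region of fold 8.82 with 2 TEAD sites. AMOTL2 is in this list and among the YAP/TAZ targets, so its region of fold 7.91 was counted in both. Lost regions were found at 4 of the 26 genes.

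Mesenchymal and matrix genes had gained regions in 8 of 30 (26.7%, interval 12.3 to 45.9%) and lost regions in 4, beside 4.91% and 4.9% of all coding genes. A TEAD site was present in 2 of these 8 gained regions. The strongest lay upstream of POSTN, which encodes the matrix protein periostin, with a fold of 14.9 at 17.8 kb and a TEAD site, and POSTN also had 1 lost region. A region of fold 10.2 lay 21.3 kb upstream of MMP2, a gelatinase gene. Neither gene had a promoter peak in either list. CDH2, which encodes N-cadherin, had a region of fold 8.82 at 25.9 kb upstream, and TNC, the tenascin-C gene, one of fold 8.82 at 48.8 kb upstream, and both had promoter peaks in both lists. TNC also had 1 lost region. Epithelial junction genes had gained regions in 0 of 30 (interval up to 11.6%, which includes 4.91%) and lost regions in 3.

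Among EGF receptor ligands and ERBB genes, 3 of 13 had a gained region (23.1%, interval 5.04 to 53.8%), beside 4.91% of all coding genes. Lost regions were found at 2 of the 13 (15.4%, interval 1.92 to 45.4%), beside 4.9% of all coding genes. An intronic region of ERBB4, a neuregulin receptor, had a fold of 15.4, one 87.0 kb downstream of the TSS of the ligand gene BTC held a TEAD and an AP-1 site at a fold of 8.59, and an intronic region of NRG2, a neuregulin gene, had a fold of 7.69. TGF-beta pathway genes had gained regions in 5 of 24 (20.8%, interval 7.13 to 42.2%) and lost regions in 4 (16.7%). The same shares of all coding genes were 4.91% and 4.9%. Beside TGFB2, these included SMAD7, the inhibitory SMAD (fold 6.56), FST, the activin antagonist follistatin (6.33), and INHBB, an activin subunit (6.33). None of the 5 regions had a TEAD site.

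Genes of actomyosin and focal adhesions had gained regions in 4 of 30 (13.3%, interval 3.76 to 30.7%) and lost regions in 2. These genes were PTK2, the focal adhesion kinase (fold 8.36), ITGA2, a collagen-binding integrin subunit (6.56), TLN1, the integrin activator talin (6.56), and MYLK, the myosin light chain kinase (6.33). The intronic region of TLN1 held 3 TEAD sites. Basal epithelial and p63 genes had gained regions in 2 of 22 (9.09%, interval 1.12 to 29.2%). For gained regions, the intervals of both lists include the 4.91% of all coding genes. Lost regions were found at 4 of the 22 basal genes (18.2%, interval 5.19 to 40.3%). That interval lies above the 4.9% of all coding genes with a lost region. The gained ones were at LAMA3, a laminin chain (fold 6.10, with 2 TEAD sites), and ITGA6, a laminin-binding integrin subunit (6.10).

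The remaining lists had gained regions at 0 to 2 genes each, and the intervals of their shares all include the 4.91% of all coding genes. AP-1 family genes had 1 of 16, a region of fold 6.33 in an intron of BABAM2 whose nearest coding gene was FOSL2. NF-kB and TNF genes had 1 of 26, an intronic region of fold 10.9 with 2 TEAD sites at NFKBIZ, an inhibitor-like cofactor. Amino acid biosynthesis genes had 1 of 22 (GOT1, fold 6.10). Complement genes had 0 of 16 (interval up to 20.6%) and cell cycle genes 0 of 33 (up to 10.6%), and each of these lists had 2 genes with a lost region. Housekeeping genes had 2 of 24 (YWHAZ, fold 9.04, and EEF1A1, fold 7.69, each with a TEAD site). Of the cell types that the culture should not hold, immune markers had 1 of 12 (PTPRC, fold 9.72, with no promoter peak in either list) and endothelial markers 0 of 10.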

How the data were processed

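ATAC-seq libraries of 2 No Dox and 2 Dox (0.05 µg/mL, 72 h) samples were grouped by GEO's labels. BWA alignment to hg38 was followed by pooling of both replicates and by MACS2 with an FDR limit of 0.05, per the study's methods (versions not given in the sources used here). The authors' peak lists hold a fold enrichment, the ratio of pooled signal over background at the summit. The deposited lists also hold the −log10 of the q-value. Pooling hides any difference between replicates, and a peak absent from a list can be a region just below that threshold.

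Peaks were merged and annotated with GENCODE release 44 and hg38 (Python 3.11.15, pandas 2.3.3, scipy 1.17.1, pysam 0.24.0, samtools 1.23.1). Motifs were sought up to 100 bp from the summit on both strands. Genes were assigned by the nearest coding TSS within 100 kb. Shares carry exact 95% intervals, without p-values. Classes, distances and motif searches were tested on simulated data. Genes named were those of the 10 strongest regions, the 10 genes with the most regions, every YAP/TAZ target with a region, up to 4 genes of each other list and the 3 regions on either side of the fold minimum. One gene so named is not reported here. Regions, lists, motifs and rule were chosen with earlier results of these data known. Alternatives covered the fold minimum, the q-value, list length, overlap, merging, TSS set, motif window and chromosomes.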

Additional observations from a re-analysis of the deposited data

How the results depend on the processing

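Of 93 values recomputed under other settings, 61 stayed within the interval of the reported value or within 1.5 times the reported count, and 32 moved outside. Only the differences from lost regions have a sign and could reverse direction, and 0 did. A fold of at least 8 left 559 regions, with shares of 47.8% for TEAD sites, 12.9% for AP-1 sites, 61.2% for introns and 80.1% for promoters open in both lists, differences from lost regions of 44.1 (TEAD) and -29.5 (AP-1) percentage points, and 4 YAP/TAZ targets. A fold of at least 5 gave 2818 regions, a TEAD share of 39.6% and differences of 34.7 and -20.1. With both lists limited to a q-value of 1e-05, 20.1% had a No Dox peak within 5 kb and 69.5% of promoters were open in both lists. Lists of equal length gave 25.9% with a No Dox peak within 5 kb. Requiring 50% overlap gave a TEAD share of 39.9%, a TEAD difference of 33.6, an AP-1 share of 18.5% and 51.4% with a No Dox peak within 5 kb. Counting coding transcripts only gave 64.6% in introns. Without chromosomes 1, 5 and 8, 27.2% had a No Dox peak within 5 kb and 5 YAP/TAZ targets had a region. A window of 50 bp gave 27.2% (TEAD) and 10.8% (AP-1), with differences of 25.3 and -17.0, and the whole region gave 58.0%, 26.6% and a TEAD difference of 42.6. The core CATTCC alone gave 51.6%, a limit of 1 kb to the next No Dox peak gave 7.62%, and promoters taken within 3 kb gave 79.8%. The cause of these shifts was not tested. Keeping windows with the satellite repeat, tried after the data had been seen, left 15 regions with the 3-base spacing. No paired analysis was possible because each deposited list pools both replicates, so no replicate could be left out either. With 1 list per condition, a region just below the calling threshold cannot be told apart from a closed one.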
